A study of Mus musculus with 4 samples.

Results

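The genes described here encode molecular chaperones and their helpers in the cytosol, the mitochondria and the endoplasmic reticulum (ER), measured in mouse CD4+ T cells before and after interferon alpha (IFNa). The 42 genes were taken by symbol from a list that was drawn up with earlier results of these data known, by a rule that uses no measured value, and 40 of them had a row of their own on the array, of 19752 genes in all. Hsp90ab1, a constitutive cytosolic HSP90, and Hsf1, the heat shock transcription factor, had no row that named them alone and are not analysed here. All 40 passed the filter on dim rows that left 10699 genes tested. The list held 14 cytosolic heat shock genes (12 measured), the 8 subunits of the CCT chaperonin, 3 mitochondrial chaperones and 17 genes of ER folding and the unfolded protein response.

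CD4+ T cells were enriched from spleens of male C57BL/6 mice, an inbred strain, at 6 weeks of age, by removing the other cell types. All groups were activated with beads against CD3 and CD28 for 48 h. The baseline group (2 arrays) received no IFNa, and the other groups received IFNa, a type I interferon, at 100 U/ml for 2 h (1 array) or 8 h (1 array). The preparation label of both IFNa arrays also names inhibitors of Janus kinases, with a sign for present or absent, while their other labels give IFNa only. Since no array of untreated cells at a matching time is analysed here, the effect of IFNa cannot be told apart from that of culture time at 2 h or 8 h. The labels do not tell whether the baseline arrays came from separate animals or cultures, so the p-values measure the spread between 2 samples that may be technical. A lone IFNa array was assumed to vary as a baseline array does.

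Chaperones bind unfolded polypeptides and help them fold, many of them with the use of ATP. In the cytosol, HSP70 proteins take up new chains with the help of DnaJ co-chaperones, nucleotide exchange factors release them, HSP90 with its co-chaperones finishes many kinases and receptors, and the ring-shaped CCT complex folds actin and tubulin. Mitochondria import proteins with their own HSP70 and fold them in the HSP60 and HSP10 chamber, and the ER uses BiP (the protein of Hspa5), calnexin, calreticulin and disulfide isomerases. Activated T cells make much new protein while they grow, and the ER stress response through the transcription factor Xbp1 adjusts ER folding capacity to that load.

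The values are log2 of the deposited intensity, which had medians from 176 to 199 over the 4 arrays and 75th percentiles from 574 (8 h) to 769 (2 h). With 4 arrays, their number sets the limit on precision. Differences were tested with limma over all 10699 genes with Benjamini-Hochberg adjustment, and a gene was said to rise or fall at an adjusted p under 0.05. Over all tested genes the 2 h median difference was 0.06 (−0.01 quantile normalized, 0.15 centred by array) and the 8 h median difference −0.16 (0.00 and −0.24 under these scalings). Group medians are therefore also given relative to the median of all genes. T cell markers were bright on every array (5 of 6 listed genes had a row, among them Cd3e and Cd4), with summed intensities of 24070 and 27630 at baseline, then 26950 (2 h) and 29460 (8 h). Cd4 itself read log2 11.66 on baseline 1 and 12.43 on baseline 2, then 12.23 (2 h) and 12.36 (8 h), so the baseline arrays differed on it. The 4 measured B cell markers of 5 (Cd79a, Cd79b, Ms4a1 and Pax5) were above the median of all rows on every array and summed to 2165 and 2185, 2099 and 2776, and their part in the results was not tested. The 3 measured plasma cell markers were below that median on every array, as were the 3 NK cell and 3 dendritic cell markers. Of the 2 CD8 T cell markers, Cd8b1 was above it on every array (log2 9.78 and 9.68 at baseline, then 9.57 and 9.87) and Cd8a was not. Of 5 measured monocyte and macrophage markers, Lyz2 and Cd68 were above it on every array and 3 were below. Lyz2 read 8.74 and 8.36, then 7.63 (2 h) and 8.10 (8 h). Of 3 neutrophil markers, 2 were below the median of all rows on every array. The other, Mpo, was above it on baseline 2 and at 2 h (7.17 and 7.62, then 7.60 and 7.41). The 1 measured erythroid marker of 2, Slc4a1, read 7.36 and 7.19, then 7.08 (2 h) and 7.94 (8 h), above that median only at 8 h. The part of these cells in the results was not tested. In such bulk samples fewer cells of a type and less RNA per cell cannot be told apart.

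Most chaperone genes had lower values at 8 h than at baseline, and the mitochondrial group had the lowest median. At 8 h, 7 of the 40 measured genes fell and none rose, which is 17.5%, beside 3.35% of all tested genes called lower and 0.654% called higher. These were Sdf2l1 and Pdia6 of the ER, the regulator Xbp1, the mitochondrial chaperones Hspa9 and Hspd1, the HSP90 co-chaperone Fkbp4 and the chaperonin subunit Cct8. Between the 2 h and the 8 h array 12 fell and none rose (30.0%, beside 10.8% of all genes called lower and 1.46% called higher). No member was called at 2 h (limma), where 1.1% of all genes were called and 0.00935% were called lower. At an unadjusted p under 0.05, 3 members were higher at 2 h (Hsph1, Hspa4l and Hspa5), or 7.5%, beside 9.36% of all genes, and 0 were lower, beside 2.78%. At 8 h, 18 members were lower at that unadjusted level (45.0%, beside 19.0% of all genes) and 0 higher (beside 5.63%). Between the IFNa times 23 were lower (57.5%, beside 27.4%) and 0 higher (beside 9.01%).

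Most of the other members lay on the same side as the 7 called genes. At 8 h, 37 of the 40 differences were below 0 (35 after quantile normalization and 39 with centred arrays), beside 67.4% of all genes, and 35 of the 40 genes lay below both baseline arrays, beside 55.9% of all genes. Their median difference was −0.47, or −0.31 relative to all genes. At 2 h, 35 of the 40 were above 0 (29 after quantile normalization and 38 with centred arrays), beside 57.0% of all genes, and 32 lay above both baseline arrays, beside 44.5% of all genes, with a median of 0.18. The 5 below 0 at 2 h (beside 43.0% of all genes) were Stip1, Xbp1, Herpud1, Pdia4 and Sdf2l1, and 4 members lay below both baseline arrays, beside 33.0% of all genes. The 3 above 0 at 8 h (beside 32.6%) were Dnaja1, Hspa8 and Pdia3, of which only Pdia3 lay above both baseline arrays, beside 24.4% of all genes. Between the IFNa times 39 of the 40 were below 0, beside 67.9% of all genes, with a median of −0.70. Baseline 2 was above baseline 1 for 35 of the 40, beside 67.5% of all genes, with a median difference of 0.15 (0.10 for all genes). Without baseline replicate 2 the 2 h median was 0.25 (0.12 for all genes), and without baseline replicate 1 it was 0.11 (−0.0022 for all genes). The size at 2 h thus depends on which baseline array is used, for the members as for all genes. The part of that difference between the baseline arrays in the 2 h result was not tested.

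**Figure D1:**
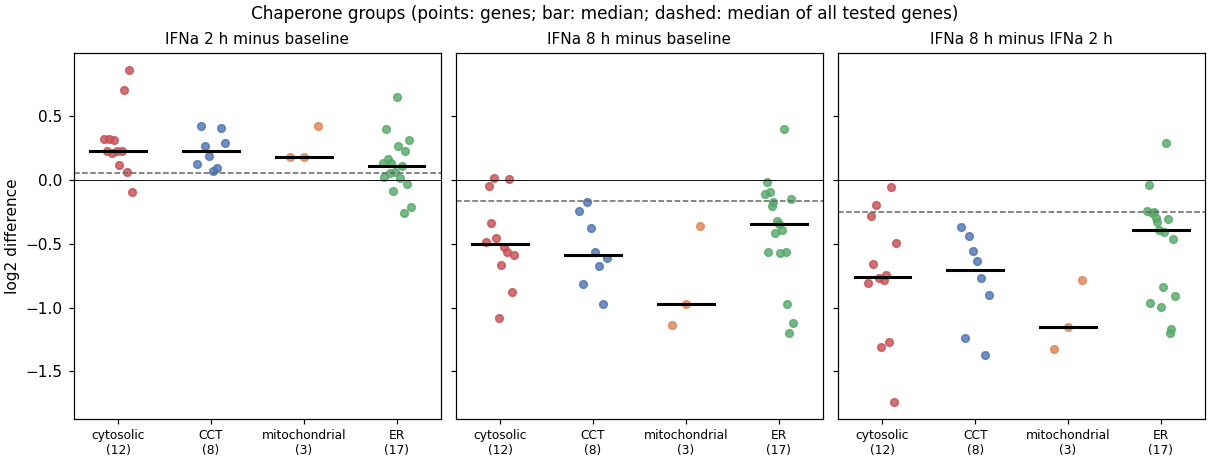
Log2 difference of each measured chaperone gene (points) in 3 comparisons, by group, with the number of genes in brackets; black bars are group medians and dashed lines the median of all tested genes. At 8 h against baseline the medians were −0.50 (cytosolic), −0.59 (CCT), −0.97 (mitochondrial) and −0.35 (ER), each below the −0.16 of all genes. At 2 h most points lay above 0, but after quantile normalization 11 of the 40 lay below it.

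Brightness differed between the list and the rest of the array. With the tested genes divided by mean level into 4 classes of like size, 28 of the 40 members lay in the brightest class, whose median difference at 8 h was −0.12 and of which 2.65% were called lower. The 8 h medians of the 4 classes ran from −0.28 to 0.11 (the dimmest class), beside −0.47 for the members. Between the IFNa times the class medians ran from −0.42 to 0.16, beside −0.70 for the members, and up to 15.2% of a class was called lower. The part of brightness in the results was not tested.

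Cytosolic heat shock genes showed 1 fall at 8 h among 12 measured, that of Fkbp4 (8.33%, beside 3.35% of all genes). The group median was −0.50 (−0.34 relative to all genes). Of the 12, 10 were below 0 (83.3%, beside 67.4% of all genes), and all 12 with centred arrays and 11 after quantile normalization. Fkbp4, an immunophilin that works with HSP90 on steroid receptors, stood at 9.51 and 9.90 at baseline, then 9.93 (2 h) and 8.63 (8 h) (log2 intensity). The 8 h array was the lowest and the 2 h array just above baseline 2. Fkbp4 fell 2.11-fold (log2 difference −1.08, SE 0.23, limma adjusted p = 0.0436). Hsp90aa1, the inducible HSP90, read 12.46 and 12.55, then 12.62 and 11.84, so that the 8 h array was again apart from the other 3. Its difference of −0.67 (SE 0.20, adjusted p = 0.102) did not pass, but passed with an intensity trend (adjusted p = 0.0471) and after quantile normalization (−0.61, adjusted p = 0.0391), though not after quantile normalization with the spread of the deposited values (adjusted p = 0.133). The HSP90 adaptor Stip1 (−0.59, SE 0.20), the HSP90 activator Ahsa1 (−0.48, SE 0.22) and the HSP90-binding Chordc1 (−0.34, SE 0.23) did not pass at 8 h.

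Exchange factors of the HSP110 family, which reset HSP70 by replacing its ADP, held the widest swing between the IFNa times. Hsph1 had intensities of 474 and 670 at baseline, then 1027 (2 h) and 307 (8 h), with the 2 h array above and the 8 h array below both baseline arrays. Hsph1 fell 3.34-fold from 2 h to 8 h (log2 difference −1.74, SE 0.29, limma adjusted p = 0.0149), the largest difference of the 40 in this comparison. Against baseline neither time passed, with 0.87 at 2 h (SE 0.25, adjusted p = 0.217) and −0.88 at 8 h (SE 0.25, adjusted p = 0.09). Against baseline Hsph1 was called in 2 of 9 fits at each time: at 2 h the adjusted p was 0.0382 after quantile normalization and 0.0354 with centred arrays, and at 8 h 0.027 and 0.0213. Quantile normalization with the spread of the deposited values gave 0.346 at 2 h and 0.169 at 8 h. Relative to baseline 1 alone the 2 h difference was 1.12, and relative to baseline 2 it was 0.62.

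Hspa4l, another HSP110 gene, had log2 intensities of 8.74 and 8.96 at baseline, then 9.56 (2 h) and 8.29 (8 h), the same order of arrays as Hsph1. It fell by 1.27 on the log2 scale from 2 h to 8 h (SE 0.24, adjusted p = 0.0214), while its 2 h difference of 0.71 (SE 0.21, adjusted p = 0.235) did not pass. Hspa4, the third of these genes, ran from 11.56 and 11.71 to 11.86 and 11.11, with −0.75 between the IFNa times (SE 0.24, adjusted p = 0.0685).

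The cytosolic genes Hspa8, Dnajb1, Dnaja1 and Bag3, of the HSP70 and DnaJ system, did not pass in any comparison of the reported fit. Hspa8, the constitutive cytosolic HSP70, read 13.90 and 13.93 at baseline, then 13.97 (2 h) and 13.92 (8 h), and the 8 h array lay between the baseline arrays. Dnajb1, a DnaJ protein strongly induced by heat, had 9.63 and 9.98, then 10.12 and 9.35, and neither IFNa time passed (−0.45 at 8 h, SE 0.23). Bag3, a stress-induced HSP70 release factor, stood at 7.70 and 8.07 at baseline, then 8.11 (2 h) and 7.83 (8 h), which is within the baseline range at 8 h. Dnaja1 was at 11.51 and 11.46, then 11.70 and 11.50, on the brighter of its 2 rows. The other row of Dnaja1 read 8.28 and 8.39, then 9.02 and 8.06, and fell between the IFNa times when it stood for the gene (−0.95, adjusted p = 0.0425), so the rows of this gene disagree.

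**Figure D2:**
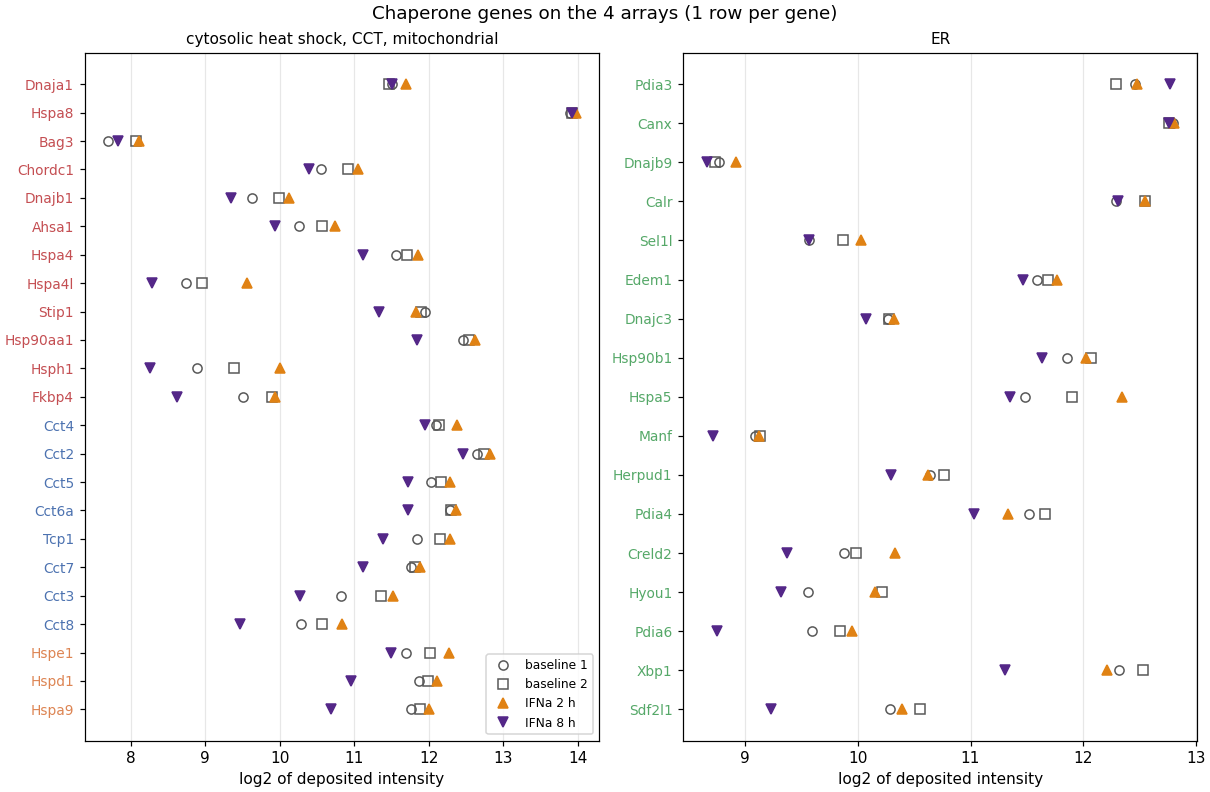
Log2 intensity of the 40 chaperone genes on each array; open circles and squares are baseline 1 and 2, upward triangles 2 h and downward triangles 8 h of IFNa, and label colours mark the groups. The 8 h triangle was the lowest symbol for 35 genes against both baseline arrays, while Pdia3 had its 8 h value at 12.78, above the other 3 arrays.

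The CCT subunits shared their direction at each time. All 8 subunits lay above both baseline arrays at 2 h (beside 44.5% of all genes) and below both at 8 h (beside 55.9%). The signs at 8 h held with quantile normalized and centred arrays. After quantile normalization Cct6a and Cct7 were below 0 at 2 h. The group medians were 0.23 at 2 h and −0.59 at 8 h (−0.43 relative to all genes). Only Cct8 fell among the 8 at 8 h in the reported fit (12.5%, beside 3.35% of all genes). It stood at 10.29 and 10.57 at baseline, then 10.84 (2 h) and 9.46 (8 h), a 1.96-fold fall (log2 difference −0.97, SE 0.22, adjusted p = 0.0483). Cct3 read 10.82 and 11.36, then 11.52 and 10.28, with the baseline arrays 0.54 apart. It fell 2.36-fold from 2 h to 8 h (−1.24, SE 0.30, adjusted p = 0.0361), as did Cct8 (−1.37, SE 0.25, adjusted p = 0.0186), but did not pass against baseline (−0.82, SE 0.26, adjusted p = 0.112).

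The other CCT subunits were graded in size. Cct7 ran from 11.76 and 11.82 to 11.88 and 11.11, a difference of −0.68 at 8 h (SE 0.20, adjusted p = 0.098). Tcp1, the founding subunit, ran from 11.84 and 12.16 to 12.29 and 11.38 (−0.62, SE 0.22), and Cct6a from 12.29 and 12.30 to 12.36 and 11.73 (−0.57, SE 0.20). Cct5 (−0.37), Cct2 (−0.24) and Cct4 (−0.17) had the smallest 8 h differences, each with an SE of 0.20. Subunits of the same ring thus had 8 h differences from −0.97 to −0.17, and whether they differed from each other was not tested.

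The mitochondrial chaperones held the lowest group median at 8 h, −0.97 (−0.81 relative to all genes), and 2 of the 3 fell (66.7%, beside 3.35% of all genes). Hspa9, the mitochondrial HSP70 that pulls proteins through the import channel, stood at 11.76 and 11.88 at baseline, then 12.01 (2 h) and 10.68 (8 h). Hspa9 fell 2.20-fold at 8 h (log2 difference −1.14, SE 0.20, adjusted p = 0.0258) and 2.50-fold from 2 h to 8 h (adjusted p = 0.0178). Hspd1, the HSP60 subunit, read 11.87 and 11.99, then 12.11 and 10.96. It fell by 0.97 on the log2 scale at 8 h (SE 0.20, adjusted p = 0.0412), and its other row gave −1.20. Hspe1, the HSP10 lid of that chamber, read 11.69 and 12.02, then 12.28 and 11.49, and did not pass (−0.36, SE 0.22, adjusted p = 0.341). On all 3 genes the 8 h array was the lowest and the 2 h array the highest of the 4.

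Hspd1 and Hspe1 are neighbours that start from a shared promoter in opposite directions, and the stretch between them holds heat shock elements, the letters that Hsf1 binds. It is shown because the partners share it. Whether their 8 h differences, −0.97 for Hspd1 and −0.36 for Hspe1, differed from each other was not tested. The stretch printed lies at chr1:55088053-55088082 (GRCm38.p6, RefSeq, plus strand, the strand of Hspe1) and holds the site with 6 bases on each side. The site itself, with the repeated GAA and TTC units in capitals, lies from 89 to 72 bases before the start of Hspe1.
Hspe1 and Hspd1 site: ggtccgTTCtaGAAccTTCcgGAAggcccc
The letters searched were 3 alternating GAA and TTC units with 2 bases between neighbours, starting with either unit, on both strands of the 250 bases before each start, and 0.466% of 32851 RefSeq promoters held them. The 2 hits in the site overlap. Of the 34 members with a promoter sequence at hand, only Hspd1 and Hspe1 held this triple, and 0 of 10 cytosolic heat shock genes did. The 8 members without one were not searched: Hspa8, Hsp90aa1, Hsp90ab1, Hsf1, Cct4, Hspa9, Hyou1 and Manf. Another annotated start of Hspd1, with its promoter at chr1:55088194-55088493 on the minus strand, did not hold it. The shorter form GAANNTTC or TTCNNGAA, found in 12.8% of all promoters, was present for Hsph1, Fkbp4, Dnaja1, Cct2 and Cct5. A match in letters is not a test of binding.

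The ER group held 3 of the 7 falls at 8 h and the median nearest to that of all genes. At 8 h 3 of the 17 fell, Sdf2l1, Xbp1 and Pdia6 (17.6%, beside 3.35% of all genes). The group median was −0.35 (−0.18 relative to all genes, or −0.12 without baseline replicate 2). Below 0 were 16 of the 17 (13 after quantile normalization), or 94.1%, beside 67.4% of all genes. From 2 h to 8 h, 5 of the 17 fell, or 29.4%, beside 10.8% of all genes. The median was −0.39 (−0.14 relative to all genes). At 2 h the group had a median of 0.11, with 13 above 0 (76.5%, beside 57.0% of all genes), but 9 above and 8 below after quantile normalization.

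Xbp1 is the transcription factor that the ER stress sensor Ire1 switches on by splicing its mRNA; this row sums up the gene and does not separate the spliced form. It stood at 12.32 and 12.53 at baseline, then 12.22 (2 h) and 11.30 (8 h). Both IFNa arrays were below both baseline arrays, the 8 h array by far. Xbp1 fell 2.17-fold at 8 h (log2 difference −1.12, SE 0.21, adjusted p = 0.0308) and also from 2 h to 8 h (−0.91, SE 0.24, adjusted p = 0.0464), while its 2 h value did not pass (−0.21, SE 0.21).

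The BiP system gave unequal values. Hspa5, which encodes BiP, read 11.48 and 11.90 at baseline, then 12.34 (2 h) and 11.35 (8 h). The 2 h array was above both baseline arrays (0.65, SE 0.24, adjusted p = 0.331) and the 8 h array just below baseline 1 (−0.35, SE 0.24, adjusted p = 0.39). Hspa5 fell 2.00-fold between the IFNa times (−1.0, SE 0.27, adjusted p = 0.0493). Sdf2l1, a partner of BiP and its DnaJ proteins, had 10.29 and 10.56 at baseline, then 10.39 (2 h) and 9.23 (8 h), so that only the 8 h array left the baseline range. It fell 2.29-fold (log2 difference −1.20, SE 0.22, adjusted p = 0.0264), the largest 8 h difference of the 40. Hyou1, the ER exchange factor for BiP, ran from 9.56 and 10.22 to 10.15 and 9.31, with baseline arrays 0.66 apart, and did not pass (−0.57, SE 0.28). The DnaJ proteins Dnajb9 (−0.09, SE 0.20) and Dnajc3 (−0.20, SE 0.20) and the ER HSP90, Hsp90b1 (−0.32, SE 0.21), lay below both baseline arrays at 8 h and did not pass.

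Disulfide isomerases, which form and rearrange disulfide bonds, had 8 h values on both sides of baseline. Pdia6 stood at 9.59 and 9.84 at baseline, then 9.94 (2 h) and 8.74 (8 h). The 8 h array was alone below the rest, and Pdia6 fell 1.96-fold (−0.97, SE 0.21, adjusted p = 0.0469), and 2.30-fold from 2 h to 8 h (adjusted p = 0.0251). Pdia4 had lower values on both IFNa arrays, 11.52 and 11.66, then 11.33 and 11.03, without passing (−0.56 at 8 h, SE 0.21, adjusted p = 0.15). Pdia3, which also helps load peptides onto MHC class I, read 12.46 and 12.29, then 12.48 and 12.78. It was the only member above both baseline arrays at 8 h (0.40, SE 0.21, adjusted p = 0.265).

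The lectin chaperones hold newly made glycoproteins, and neither passed in any comparison. Canx, calnexin, read 12.80 and 12.77 at baseline, then 12.81 (2 h) and 12.77 (8 h). Calr, calreticulin, read 12.29 and 12.55, then 12.55 and 12.31, with the 8 h array within the baseline range. Among the factors that send misfolded proteins to degradation, Herpud1 stood at −0.41 (SE 0.20), Edem1 at −0.17 (SE 0.20) and Sel1l at −0.15 (SE 0.22) at 8 h, none of which passed. The stress-induced ER proteins Creld2 and Manf were at −0.56 (SE 0.20) and −0.39 (SE 0.20) at 8 h. Creld2 ran from 9.88 and 9.98 to 10.33 and 9.37, with the 2 h array highest, and fell between the IFNa times (−0.96, SE 0.23, adjusted p = 0.0376); that call ended after quantile normalization.

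**Figure D3:**
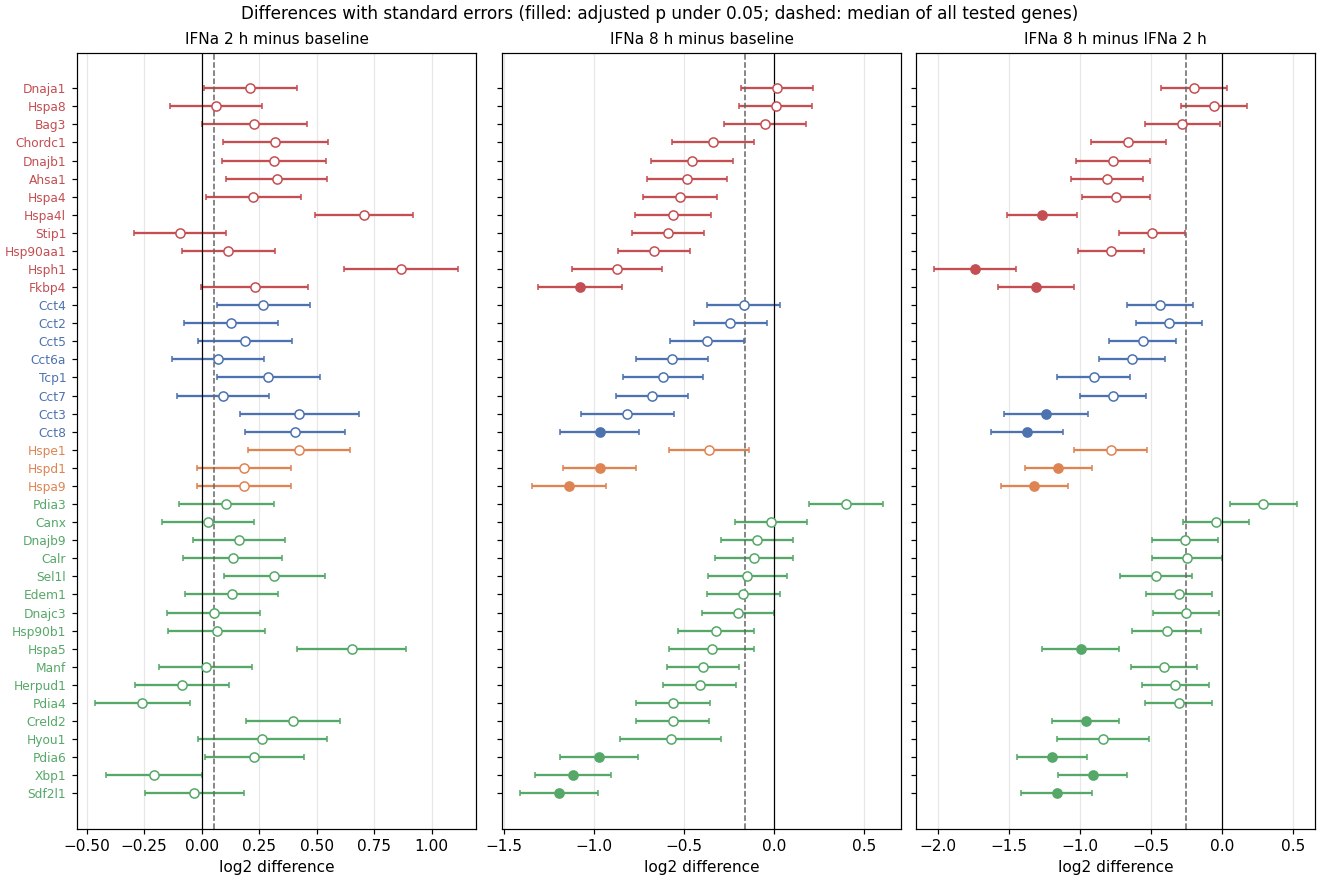
Log2 difference and moderated standard error (bars) of each measured chaperone gene in 3 comparisons; filled points had an adjusted p under 0.05 and dashed lines are the median of all tested genes. No point is filled at 2 h, 7 are filled at 8 h against baseline and 12 at 8 h against 2 h, all of them below 0.

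The ER stress element (ERSE), CCAAT and CCACG with 9 bases of any kind between them, is the sequence through which the factors Atf6 and Xbp1 act on ER chaperone genes. It was searched on both strands of the 250 bases before each start and was found in 7 of the 15 ER members with a promoter (Hspa5, Hsp90b1, Dnajc3, Pdia6, Calr, Canx and Creld2), and in 0.113% of all promoters of that length. No cytosolic, CCT or mitochondrial member with a promoter held it. The 8 matches are printed to show what the ER genes share beyond the list, each read in the direction of the motif, with its fixed letters in capitals.
Hspa5: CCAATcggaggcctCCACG
Hsp90b1, near site: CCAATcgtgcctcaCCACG
Hsp90b1, far site: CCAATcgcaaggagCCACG
Dnajc3: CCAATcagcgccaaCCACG
Pdia6: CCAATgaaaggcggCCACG
Calr: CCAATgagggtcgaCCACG
Canx: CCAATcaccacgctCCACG
Creld2: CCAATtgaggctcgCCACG
These lie at chr2:34772025-34772043 (Hspa5), chr10:86705533-86705551 and chr10:86705638-86705656 (Hsp90b1), chr14:118937827-118937845 (Dnajc3), chr12:17266491-17266509 (Pdia6), chr8:84847075-84847093 (Calr), chr11:50325800-50325818 (Canx) and chr15:88819520-88819538 (Creld2), on GRCm38.p6. Their first bases were between 65 (Hspa5) and 212 (the far site of Hsp90b1) bases before the start. Within the ER group the 7 genes with a match had 8 h differences from −0.97 to −0.02 with a median of −0.32, and the 8 with a promoter and no match from −1.20 to 0.40 with a median of −0.29. Sdf2l1 and Xbp1, the ER genes with the largest falls, had no match in this window.

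Whole promoters are shown for Hspa5, which encodes BiP, for Pdia6, the gene with a match that fell at 8 h, and for Herpud1, which held the related element ERSE-II, ATTGG and CCACG with 1 base between them, found in 0.0304% of promoters. Each is the 250 bases before the start on GRCm38.p6, all on the plus strand, at chr2:34771840-34772089 (Hspa5), chr12:17266339-17266588 (Pdia6) and chr8:94386179-94386428 (Herpud1), with the element in capitals.
Hspa5: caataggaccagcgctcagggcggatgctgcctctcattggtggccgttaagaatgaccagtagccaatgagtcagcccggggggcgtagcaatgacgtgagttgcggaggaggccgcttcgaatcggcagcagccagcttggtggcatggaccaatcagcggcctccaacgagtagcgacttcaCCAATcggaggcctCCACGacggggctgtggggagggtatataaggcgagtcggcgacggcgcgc
Pdia6: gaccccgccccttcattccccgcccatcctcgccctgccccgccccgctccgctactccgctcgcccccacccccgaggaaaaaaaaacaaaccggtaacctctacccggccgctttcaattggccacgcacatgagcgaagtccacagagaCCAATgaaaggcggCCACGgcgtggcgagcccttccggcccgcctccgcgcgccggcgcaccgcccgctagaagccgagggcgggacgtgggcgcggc
Herpud1: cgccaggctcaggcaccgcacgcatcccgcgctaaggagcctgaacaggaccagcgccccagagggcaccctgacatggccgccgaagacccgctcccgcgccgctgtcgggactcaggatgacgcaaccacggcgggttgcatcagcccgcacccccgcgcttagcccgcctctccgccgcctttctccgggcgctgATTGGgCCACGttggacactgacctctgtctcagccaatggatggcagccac
The Hspa5 element lies 65 to 47 bases before the start, that of Pdia6 98 to 80 and that of Herpud1 52 to 42. The core letters TGACGTGG of the unfolded protein response element were not in this window of any member with a promoter.

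**Figure D4:**
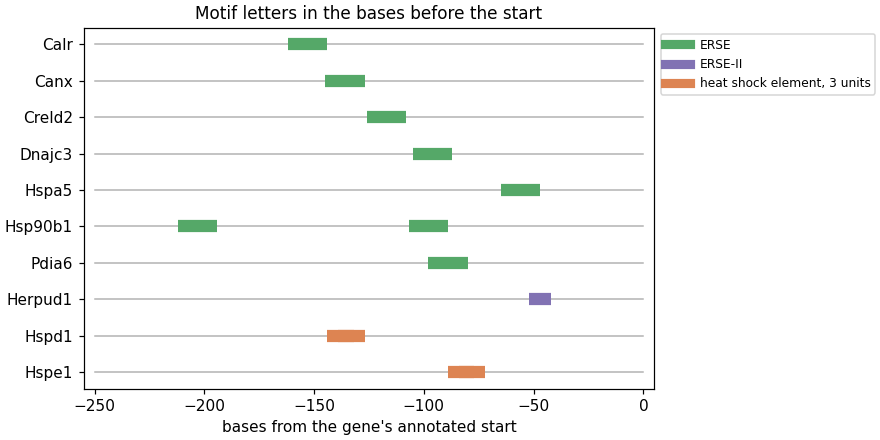
Positions of the ERSE, ERSE-II and triple heat shock element letters (coloured blocks) in the 250 bases before the annotated start (right end, 0) of the 10 members that held one. Only Hsp90b1 held ERSE at 2 places. The Hspd1 and Hspe1 blocks are the same site, seen from the start of Hspe1 and from the Hspd1 start that held it.

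Other genes of the same machineries were taken from lists of related genes, and their counts stand beside 3.35% (8 h) and 10.8% (between the IFNa times) of all tested genes called lower. Of 14 tested mitochondrial chaperones, import factors and proteases, 2 fell at 8 h (14.3%) and 5 from 2 h to 8 h (35.7%), and all 14 were below 0 at 8 h, beside 67.4% of all genes (median −0.67). Clpx, the unfoldase of the mitochondrial Clp protease, fell by 1.10 at 8 h on the log2 scale (SE 0.23, adjusted p = 0.0385), and Tomm70a, an import receptor that docks HSP70 and HSP90, fell by 0.95 (SE 0.21, adjusted p = 0.0479). Lonp1, a matrix protease, fell between the IFNa times (−1.60, SE 0.32, adjusted p = 0.0238), as did Timm44, which anchors Hspa9 at the import channel (−1.06, SE 0.28, adjusted p = 0.046).

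Of 21 tested other cytosolic chaperones and co-chaperones, 1 fell at 8 h (4.76%, near the 3.35% of all genes) and 7 between the IFNa times (33.3%, beside 10.8%), with a median of −0.41 at 8 h. At 8 h this was Ppid, an HSP90-bound cyclophilin (−1.06, SE 0.20, adjusted p = 0.0314). The HSP90 partners Fkbp5 (−1.16, SE 0.25, adjusted p = 0.0269) and Ptges3, also called p23 (−1.08, SE 0.26, adjusted p = 0.0371), fell from 2 h to 8 h. Hsf2, another heat shock factor, had the largest fall of this list in that comparison (−1.68, SE 0.26, adjusted p = 0.013), from a 2 h difference of 0.99 that did not pass (SE 0.23, adjusted p = 0.11).

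Prefoldin hands actin and tubulin chains to CCT. Of its 9 tested genes and phosducin-like helpers, 1 fell at 8 h, Pfdn2 (−1.08, SE 0.20, adjusted p = 0.0307), and 3 fell between the IFNa times, Pfdn2 (−1.44), Pfdn6 (−0.94) and Vbp1 (−0.89). These are 11.1% and 33.3% of the list, beside 3.35% and 10.8% of all genes, and the median at 8 h was −0.42.

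The remaining ER lists had shares of calls near or below those of all genes at the adjusted level, while some had larger shares of lower values at the unadjusted level. Of 22 tested folding and redox factors, 1 fell at 8 h, the calcium-binding Calu (−1.03, SE 0.21, adjusted p = 0.0376), and 2 between the IFNa times, Calu and the peroxiredoxin Prdx4 (−1.22, SE 0.27, adjusted p = 0.0295). These shares, 4.55% and 9.09%, stand beside 3.35% and 10.8% of all genes. Among 14 genes of ER-associated degradation and 17 of ER translocation none was called at 8 h (limma), with medians of −0.14 and −0.13 against −0.16 for all genes. At an unadjusted p under 0.05, 0 of the 14 and 3 of the 17 (17.6%) were lower at 8 h, beside 19.0% of all genes. Higher were 1 of the 14, Derl3 (0.51), and 0 of the 17, beside 5.63%. Of the 22 folding and redox factors 6 (27.3%) were lower, and of 5 measured ER stress sensors 1. Between the IFNa times 11 of the 22 and 8 of the 17 (47.1%) were lower, beside 27.4% of all genes. So were 4 of the 14 (28.6%) and 3 of the 5. Only 1 of the 14 was higher there, beside 9.01%. At 2 h 4 of the 14 (28.6%) and 2 of the 17 (11.8%) were higher, beside 9.36%. Of the 22, 1 was (4.55%), and of the 5, 0. Between the IFNa times the ubiquitin-conjugating enzyme Ube2g2 fell (−1.0, SE 0.26, adjusted p = 0.0445), as did the signal recognition particle receptor genes Srpr (−1.30, SE 0.30, adjusted p = 0.0333) and Srprb (−0.94, SE 0.25, adjusted p = 0.0473), or 7.14% of the degradation list and 11.8% of the translocation list, beside 10.8% of all genes. The 5 measured ER stress sensors held no call in any comparison, with Ern1, which encodes Ire1, at −0.50 at 8 h (SE 0.20, adjusted p = 0.178) and Eif2ak3, which encodes Perk, at −0.83 between the IFNa times (SE 0.24, adjusted p = 0.0556).

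The calls of members lay close to the threshold, with adjusted p from 0.0258 to 0.0483 at 8 h against baseline. With no filter on dim rows none of the 7 was called at 8 h and 4 of the 12 remained between the IFNa times, and with quantile normalization and the spread of the deposited values 2 (Hspa9 and Xbp1) and 2 (Hsph1 and Hspa9) remained.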

How the data were processed

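RNA of the 4 samples was hybridised to Affymetrix Mouse Gene arrays, 1 sample per array, per the labels. The table the authors deposited holds intensity on a linear scale. The submitters' processing notes name RMA and Affymetrix Power Tools without versions, and whether the 4 arrays went through RMA jointly is not stated there. RMA subtracts background, quantile normalizes the arrays run jointly and summarises the probes of a transcript, and it understates folds of dim genes. The 4 deposited arrays did not share 1 distribution. Their 25th percentiles ran from 66.8 (2 h) to 87.8 (8 h), and their highest values from 24276 (8 h) to 27543 (baseline 1).

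Log2 was taken with no pseudocount. Of 24922 rows, 21425 had 1 gene symbol in the platform annotation, 1399 several and 2098 none listed, and only the first were used. The row with the highest mean stood for a gene (Dnaja1, Hspa8, Hsp90aa1, Hspd1 and Hspe1 had several). A gene was tested if 1 or more arrays had it above that array's median row (10699 genes). Limma 3.58.1 in R 4.3.3 fitted a mean for each of 3 groups, two-sided, with 1 residual degree of freedom beside 7.46 prior degrees of freedom (prior SD 0.175). The fit was run on data simulated from that prior, with the same spread on every array. That run therefore cannot check the spread assumed for a lone IFNa array. No set test was run. Promoters came from RefSeq (GRCm38.p6), which held 34 of the 42 members.

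The members, the related lists and the rules were chosen with earlier results of these data known. Named were all members and, of each related list, up to 4 called genes per comparison with the largest differences, or the largest where none was called. Alternatives covered scaling, filter, prior, row choice and each baseline array left out.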

Additional observations from a re-analysis of the deposited data

Results flagged for a closer look

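For 12 chaperone genes the differences from baseline at 2 h and at 8 h were unlike, by limma's test of the 8 h against the 2 h array (adjusted p under 0.05). All 12 were lower at 8 h, and the log2 differences between the IFNa arrays were −1.74 for Hsph1, −1.37 for Cct8, −1.32 for Hspa9, −1.31 for Fkbp4, −1.27 for Hspa4l, −1.24 for Cct3, −1.20 for Pdia6, −1.16 for Sdf2l1, −1.15 for Hspd1, −1.0 for Hspa5, −0.96 for Creld2 and −0.91 for Xbp1. Each IFNa time had 1 array, so these differences had no replicate check.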

How the results depend on the processing

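No paired analysis was possible because the groups share only replicate number 1. Differences of members that were called as reported kept their sign under every alternative run. Uncalled ones did not all do so: at 2 h Stip1, Cct6a, Cct7, Hsp90b1, Dnajc3, Herpud1, Canx, Sdf2l1, Hyou1 and Manf, at 8 h Hspa8, Dnaja1, Bag3, Dnajb9, Dnajc3, Calr and Sel1l, and between the IFNa times Dnaja1, Dnajb9, Dnajc3 and Canx changed sign under at least 1 alternative. Quantile normalization called 441 genes at 2 h (118 as reported), 1563 at 8 h (428) and 2306 between the IFNa times (1311), and centred arrays called 298, 794 and 2387. With no filter on dim rows 143 genes were called at 8 h and 415 between the IFNa times, and with a filter at the 60th percentile 255 at 8 h. Quantile normalization with the spread of the deposited values, chosen after seeing the data like the row of lowest mean, called 725 between the IFNa times. Of the chaperone genes, 1 (Hsph1) was called at 2 h after quantile normalization and 1 (Hsph1) with centred arrays. At 8 h 0 were called with no filter, 3 at the 60th percentile, 4 with the row of lowest mean and 2 with quantile normalization and the deposited spread, against 7 as reported. Between the IFNa times 20 were called with centred arrays, 4 with no filter and 2 with quantile normalization and the deposited spread, against 12.

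Group medians relative to all genes moved mainly with the filter, which sets the genes compared. With no filter they were, in the order cytosolic, CCT, mitochondrial and ER, 0.30, 0.30, 0.26 and 0.18 at 2 h, −0.54, −0.63, −1.01 and −0.38 at 8 h, and −0.88, −0.82, −1.27 and −0.51 between the IFNa times. At the 60th percentile the last comparison gave −0.44, −0.38, −0.83 and −0.066. Quantile normalization gave −0.49 for CCT at 8 h and −0.42 for the cytosolic group between the IFNa times, with either spread. For the mitochondrial group the row of lowest mean gave 0.19 at 2 h, −0.97 at 8 h and −1.06 between the IFNa times, and the mean of rows −0.92 and −1.05 for the latter comparisons. Leaving out each baseline array, which gives a value and no test, gave 0.14 to 0.30 for the cytosolic group at 2 h and −0.20 to −0.12 for the ER group at 8 h.

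With 1 array per IFNa time and 1 residual degree of freedom, the spread came mostly from the prior over all genes.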

Other observations

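Stress-inducible small heat shock proteins were dim in these cells and were not tested. Hspb1 had log2 intensities of 6.54 and 6.43 at baseline, then 6.34 (2 h) and 6.84 (8 h) on its brighter row, and Cryab 6.21 and 6.06, then 5.69 and 6.66, both below the median of all rows on every array. Hspa1a, the heat-inducible HSP70, had intensities of 147.1 and 133.2 at baseline, then 140.9 (2 h) and 159.9 (8 h), also below that median. Among genes of ER-associated degradation, Syvn1, the ubiquitin ligase that works with Sel1l, held the ERSE letters before its start, and so did Derl3. Syvn1 was above both baseline arrays at both times (0.55 at 2 h and 0.40 at 8 h), and Derl3 stood at −0.12 at 2 h and 0.51 at 8 h, none of which passed.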
